A study of Mus musculus with 10 samples.

Results

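The genes described here carry insulin and IGF signals through PI3K and AKT to the FoxO transcription factors. They are 32 genes chosen by symbol out of the 46509 rows of each all-gene table, and 29 of them were measured, meaning that their FPKM reached 1 in any of the 4 libraries 7 to 10. FPKM is a gene's fragment count per transcript length and per sequenced fragment. The 3 members under the limit were Igfbp3, Igfbp4 and Igfbp6.

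RNA was sequenced from a conditionally immortalized line of mouse proximal tubule, the kidney epithelium that reabsorbs most of the glomerular filtrate. The parent mice were of mixed strain, labelled N2 FVB with TbRII floxed, crossed with the Immorto-mouse, so every group shares a floxed TGF-beta receptor II allele, and no Cre is named. The siRNA was given at 33 °C, before a shift to 37 °C and the withdrawal of interferon gamma. Library 8 had FoxO1 siRNA, library 9 FoxO3 siRNA, library 10 siRNA to FoxO1 and FoxO3, and library 7 scramble siRNA, and these 4 libraries also shared 100 uM H2O2 and Wnt3a at 20 ng/mL. Libraries 2 and 1 had no siRNA and no H2O2, with Wnt3a at 20 ng/mL or Wnt diluting buffer. Libraries 6 and 5 had 100 uM H2O2 and no siRNA, with Wnt3a at 20 ng/mL in library 6 and no Wnt entry in library 5. Libraries 4 and 3 had Wnt3a without H2O2, with siRNA to FoxO1 and FoxO3 or with scramble siRNA. Every group consists of 1 library, so differences have no replicate spread to be set against and conditions could not be tested.

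When insulin or IGF binds its receptor, insulin receptor substrates recruit PI3K, which makes the membrane lipid PIP3. PIP3 brings AKT to PDPK1, which phosphorylates it together with mTOR complex 2, and active AKT phosphorylates FoxO proteins so that they leave the nucleus. AKT also relieves the TSC brake on mTOR complex 1, which drives protein synthesis. In many cells FoxO factors in turn transcribe genes of this pathway, so siRNA to FoxO addresses whether the transcripts upstream of FoxO shift.

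Ratios are log2((a + 1)/(b + 1)) of FPKM and are written 8/7 for library 8 over library 7. A ratio of 0.58 either way, about 1.5-fold, served as the size rule. For shares over all genes, the measured genes of a comparison are those that reached 1 FPKM in either of the libraries compared. The targeted gene Foxo1 had an FPKM of 3.66 in library 8 and 4.67 in library 10, against 7.92 in library 7. Foxo3 had an FPKM of 19.9 in library 9 and 17.4 in library 10, against 19.7 in library 7 and 17.7 in library 8, which had no FoxO3 siRNA. Foxo3 was thus not lower in library 9, and in library 10 it was close to its level in library 8, so library 9 is called the library labelled FoxO3 siRNA and library 10 the library labelled for both siRNAs. Of 14 proximal tubule markers 7 were measured, led by Pax8, while Slc34a1 and Hnf4a stood at or near 0 in all 4 libraries. The summed FPKM of the 14 was 312, 335 and 322 in libraries 8, 9 and 10, against 320.4 in library 7, but single markers differed more. Aqp1, the water channel, had 18.1, 37.2 and 23.5 FPKM, against 14.3 in library 7, past 0.58 in 9/7 (1.32) and 10/7 (0.68). Cdh16, kidney cadherin, had 58.2, 63.5 and 55.1 FPKM, against 71.7 in library 7. Of other cell types, 2 of 4 general epithelial markers (Krt8 and Krt18, with Cdh1 and Epcam near 0), 2 of 4 leukocyte, 1 of 5 fibroblast and 2 of 4 podocyte markers were measured, and none of 5 distal nephron or 4 endothelial ones. The podocyte list summed to 25.5, 25.4 and 29.1 FPKM in libraries 8, 9 and 10, against 32.4 in library 7. Most of it was Synpo, at 21.5, 21.1 and 24.4 FPKM against 28.2 in library 7, with Nphs1 at 0. Wt1 had 3.97, 4.25 and 4.72 FPKM, against 4.21 in library 7. The epithelial list summed to 51.6, 40.0 and 49.5 FPKM, against 51.7 in library 7. In bulk RNA fewer cells of a type and less RNA per cell cannot be told apart. The part of these markers in the results was not tested.

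In library 8, with FoxO1 siRNA, and in the libraries labelled FoxO3 siRNA and both siRNAs, the transcripts of the measured members stayed near their scramble level. None of the 29 measured members passed 0.58 in 8/7, where 2.68% of 12006 measured genes did. The count was likewise 0 of 29 in 9/7, with 4.53% of 12045 genes past the rule, and 0 of 29 in 10/7, with 2.96% of 12062. Those background shares correspond to about 1 gene in 29, so counts of 0 do not set the pathway apart from other genes. At a lower rule of 0.32, about 1.2-fold, 1 member passed in 8/7 (Sgk1), beside 9.20% of measured genes, 2 in 9/7 (Sgk1 and Igfbp5), beside 14.7%, and 2 in 10/7 (Igfbp5 and Inpp5d), beside 10.2%. The median member ratio was -0.06 in 8/7, -0.01 in 9/7 and -0.01 in 10/7, beside -0.01, -0.02 and -0.02 over all measured genes. The median distance from 0 was 0.06, 0.09 and 0.09 for members and 0.09, 0.13 and 0.10 for all measured genes. Below 0 lay 21 of 29 members in 8/7 (72.4%, beside 51.9% of all measured genes) and 16 of 29 in each of 9/7 and 10/7 (55.2%, beside 54.1% and 54.3%). The 3 comparisons share library 7, so their ratios are not independent.

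**Figure D1:**
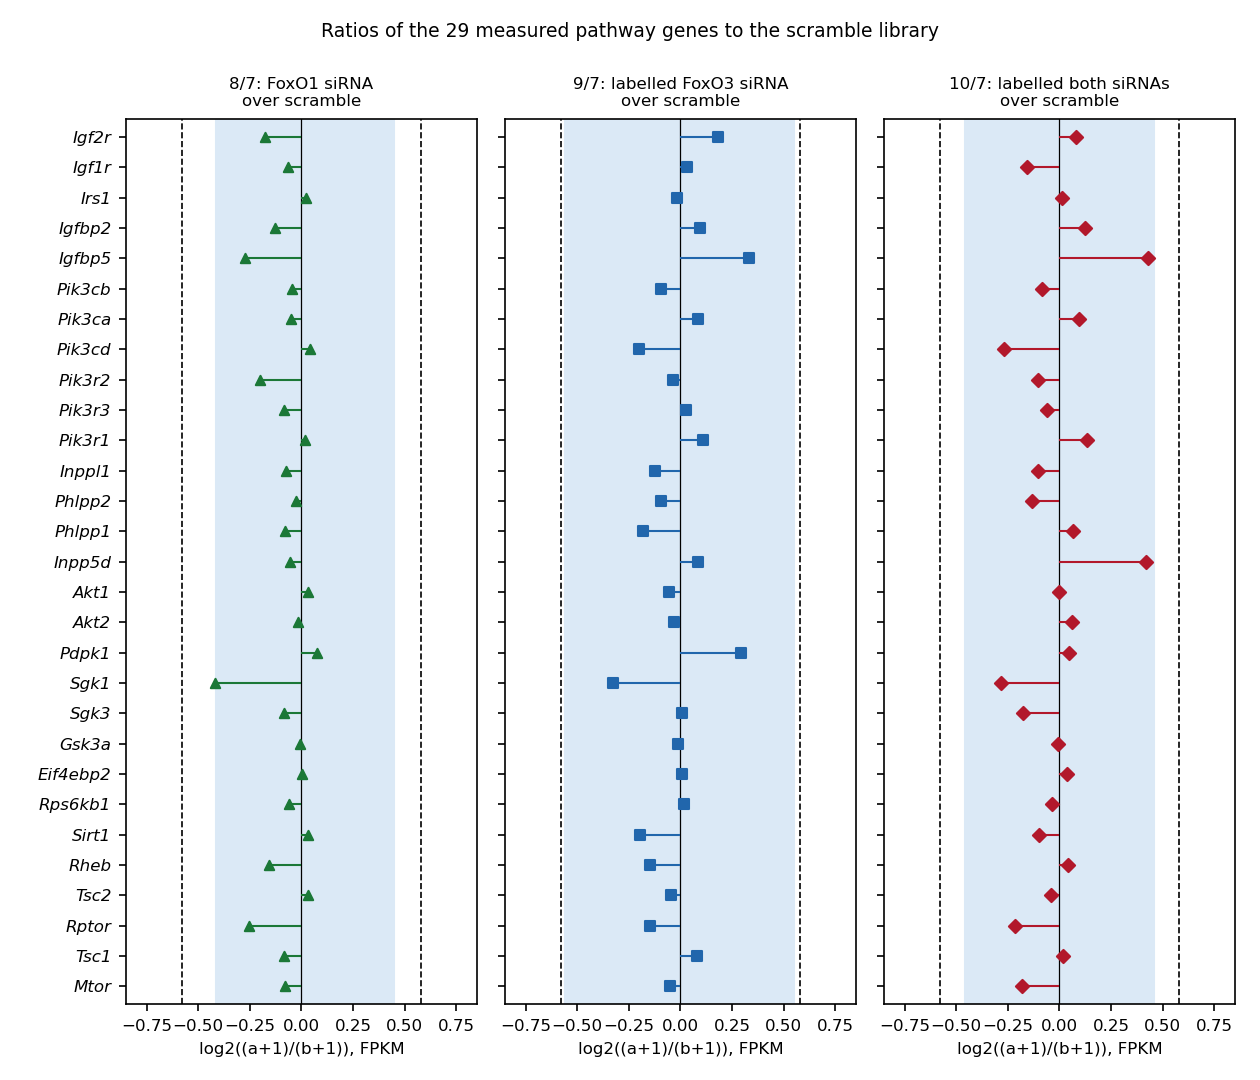
Log2 ratio (x axis, pseudocount 1 FPKM) of each of the 29 measured members, from top to bottom by role, in 8/7, 9/7 and 10/7, with 1 library on each side of a ratio. The shaded band holds the central 95% of all measured genes and the dashed lines mark 0.58. No member reaches a dashed line. Sgk1, at -0.42 in 8/7, is the only member outside a band, just past the lower limit of -0.41.

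Promoter sequences are shown for Akt1, the only member with the FoxO motif searched, in 1 of its 2 windows, and for the neighbours Igfbp5, with the widest spread over the siRNA libraries, and Igfbp2, the most abundant member, both of which had higher values with Wnt3a. The motif was GTAAACA on either strand. It was found in 1 of 31 members that RefSeq's promoter table holds (3.23%), against 4.05% of all 27025 genes, in windows from 250 bases before to 50 after each start (GRCm38.p6, the assembly behind mm10). Sgk3 was not in that table. The 250 bases before the start (for Akt1 and Igfbp2, 1 of 2 starts) are printed 5′ to 3′ on the gene's strand, with the motif in capitals as its reverse complement. The Igfbp5 and Igfbp2 windows do not contain it, so they carry no capitals. A match is a description of letters and not a binding site.
Akt1, chr12:112674885-112675134, minus strand: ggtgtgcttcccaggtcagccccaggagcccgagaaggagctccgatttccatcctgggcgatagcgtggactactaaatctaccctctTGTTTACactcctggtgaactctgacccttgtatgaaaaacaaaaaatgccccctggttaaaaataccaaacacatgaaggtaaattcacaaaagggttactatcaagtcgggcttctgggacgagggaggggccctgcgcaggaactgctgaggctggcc
Igfbp5, chr1:72874866-72875115, minus strand: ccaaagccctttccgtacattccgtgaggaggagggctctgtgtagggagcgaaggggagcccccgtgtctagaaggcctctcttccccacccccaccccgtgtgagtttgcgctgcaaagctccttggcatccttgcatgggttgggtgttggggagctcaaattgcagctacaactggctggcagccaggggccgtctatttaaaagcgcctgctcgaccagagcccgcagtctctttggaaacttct
Igfbp2, chr1:72824230-72824479, plus strand: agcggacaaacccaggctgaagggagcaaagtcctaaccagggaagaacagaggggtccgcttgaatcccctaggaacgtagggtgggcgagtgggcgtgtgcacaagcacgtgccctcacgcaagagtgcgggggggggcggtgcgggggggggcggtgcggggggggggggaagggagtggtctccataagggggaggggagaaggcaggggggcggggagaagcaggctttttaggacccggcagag
The Akt1 match begins 161 bases before that start, and the other Akt1 window holds none. Akt1 had ratios of 0.03 in 8/7 and -0.05 in 9/7, and within 0.01 of 0 in 10/7.

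Of the receptors and their adaptor, Igf2r differed most over the 4 libraries, 1.30-fold between the highest and the lowest, against 1.15-fold for Igf1r and 1.03-fold for Irs1. Igf1r, the IGF1 receptor kinase (ENSMUSG00000005533, chromosome 7), had 15.3, 16.5 and 14.4 FPKM in libraries 8, 9 and 10, against 16.1 in library 7. Igf2r, the mannose 6-phosphate receptor that clears IGF2 (ENSMUSG00000023830, chromosome 17), had 20.5, 26.6 and 24.8 FPKM, against 23.3 in library 7. It was thus lowest with FoxO1 siRNA and highest in the library labelled FoxO3 siRNA, with ratios of -0.18 and 0.18 to library 7 and of 0.36 in 9/8. Irs1, the insulin receptor substrate (ENSMUSG00000055980, chromosome 1), stayed between 10.5 and 10.8 FPKM in the 4 libraries, although 30.9% of its exonic bases are shared with Gm9747 on the opposite strand. The insulin receptor gene Insr was lower in level than Igf1r, at 6.20, 7.01 and 6.08 FPKM against 6.44 in library 7. The ligand genes Igf1 and Igf2 were below 1 FPKM in all 4 libraries.

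The IGF-binding proteins, secreted carriers that hold IGFs away from or near their receptor, spanned the whole range of member levels. Igfbp2 (ENSMUSG00000039323, mm10 chromosome 1, 72824503 to 72852474) was the member with the highest level. It had 195 FPKM in library 8, 228 in library 9 and 234 in library 10, against 213 in library 7. Igfbp5 (ENSMUSG00000026185, chromosome 1, 72857932 to 72874884) lies beside Igfbp2 on the opposite strand, with 5457 bases between the 3′ ends of the pair, and was the measured member with the lowest level. Its FPKM was 1.01 in library 8, 2.06 in library 9 and 2.28 in library 10, against 1.43 in library 7. Igfbp5 was the member with the widest spread over the 4 libraries, 2.26-fold between the highest and the lowest.

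Igfbp5 had ratios of -0.27 in 8/7, 0.33 in 9/7 and 0.43 in 10/7, and Igfbp2 of -0.13, 0.09 and 0.13. Both neighbours were lowest in library 8 and highest in library 10. At least as far from 0 as Igfbp5 lay 12.4%, 14.0% and 5.62% of measured genes in 8/7, 9/7 and 10/7, and as far as Igfbp2 37.2%, 60.5% and 40.5%. In the authors' deposited table for 10/7, Igfbp5 had p = 0.00785 and q = 0.999, from a test of those 2 libraries and not of the conditions. It was the only member with p under 0.05 in those 3 tables, in which 1.23%, 2.40% and 1.50% of tested genes had such a p. Igfbp3 did not exceed 0.25 FPKM and Igfbp4 0.46 FPKM, and Igfbp6 was at 0.10 FPKM in library 8 and listed at 0 in the other libraries. Outside the members, Igfbp7 was more abundant than any of these, at 772, 731 and 705 FPKM in libraries 8, 9 and 10, against 809 in library 7.

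Between the siRNA libraries themselves, Igfbp5 passed the size rule. Its ratio was 0.61 in 9/8, where it was 1 of 29 members past the rule beside 5.12% of measured genes, and 0.70 in 10/8, again 1 of 29 beside 3.46%. The level in the scramble library cancels in these ratios. No member passed in 10/9, beside 4.13% of measured genes, and Igfbp5 stood at 0.10 there. On the FPKM scale without a pseudocount, Igfbp5 was 2.04-fold as high in library 9 and 2.25-fold as high in library 10 as in library 8. These calls rest on the pseudocount, since with 5 FPKM the Igfbp5 ratios were 0.23 in 9/8 and 0.28 in 10/8, and with 0.1 FPKM its ratio in 10/7 was 0.63.

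**Figure D2:**
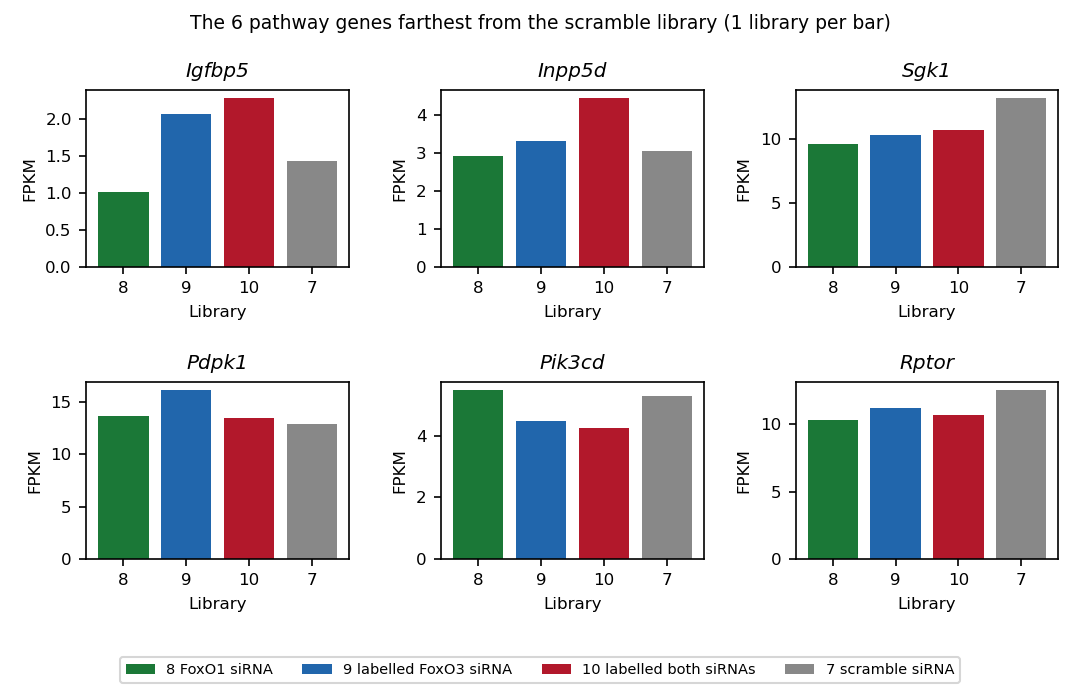
FPKM (y axis, from 0) of the 6 members with the largest absolute ratio to library 7, with bars for libraries 8, 9, 10 and 7 and 1 library per bar. Igfbp5 runs from 1.01 in library 8 to 2.28 in library 10, Inpp5d is high in library 10 alone at 4.46, Pdpk1 is high in library 9 at 16.1, and Sgk1 and Rptor are highest in library 7.

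Class IA PI3K pairs a catalytic p110 subunit with a regulatory p85-type subunit that docks on receptors and adaptors. Pik3cb (p110 beta) had the highest level of the catalytic genes, at 32.5 to 34.7 FPKM over the 4 libraries, followed by Pik3ca (p110 alpha) at 19.2 to 21.4. Pik3cd (p110 delta, best known from leukocytes; ENSMUSG00000039936, chromosome 4) was the lowest, at 5.48 FPKM in library 8, 4.48 in library 9 and 4.24 in library 10, against 5.29 in library 7. Libraries 9 and 10 thus lay below libraries 8 and 7 for Pik3cd, with a ratio of -0.27 in 10/7, a distance that 14.2% of measured genes reached. The summed FPKM of the 3 catalytic genes was 58.3, 58.3 and 58.4 in libraries 8, 9 and 10, against 59.9 in library 7.

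Among the regulatory genes Pik3r2 (p85 beta; ENSMUSG00000031834, chromosome 8) was highest in every library, with 24.7, 27.9 and 26.5 FPKM in libraries 8, 9 and 10 against 28.5 in library 7, and a ratio of -0.20 in 8/7. Pik3r3 (p55 gamma) followed at 19.8 to 21.6 FPKM, and 24.3% of its exonic bases are shared with Gm49337 on the same strand. Pik3r1 (p85 alpha) stood at 17.6 to 19.4. The order of these 3 genes was the same in the 4 libraries, and so was that of the catalytic genes.

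**Figure D3:**
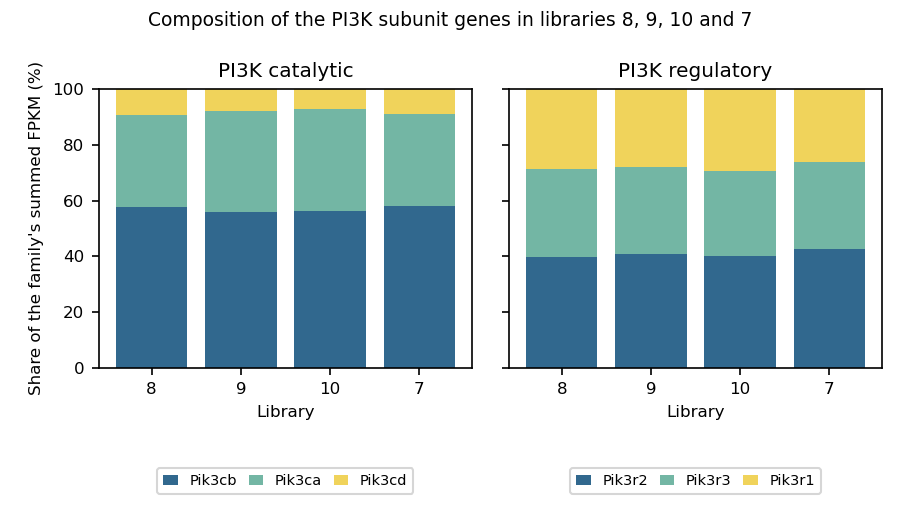
Share of the summed FPKM of a family (y axis, percent) held by each gene in libraries 8, 9, 10 and 7, for the PI3K catalytic and the PI3K regulatory genes. Pik3cb holds 55.9% to 58.0% and Pik3r2 39.7% to 42.5%, with the same order in each library.

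Of the AKT, PDPK1 and SGK kinases, the AKT genes differed little, and Pdpk1 and Sgk1 were among the 4 members with the largest ratios. Akt1, an AKT kinase gene with a higher level than Akt2 in each of the 4 libraries (ENSMUSG00000001729, chromosome 12, 112653821 to 112674884), had 101 FPKM in library 8, 95.1 in library 9 and 98.7 in library 10, against 98.6 in library 7. Akt2, the form most tied to insulin-driven glucose uptake, had 38.0, 37.7 and 40.3 FPKM, against 38.5 in library 7. Pdpk1, which phosphorylates the activation loop of AKT and SGK (ENSMUSG00000024122, chromosome 17, 24073680 to 24150924), had 13.7 FPKM in library 8, 16.1 in library 9 and 13.4 in library 10, against 12.9 in library 7. The library labelled FoxO3 siRNA was thus the high one for Pdpk1, with a ratio of 0.29 in 9/7 that 17.1% of measured genes matched or exceeded.

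Sgk1, an AKT-related kinase that also phosphorylates FoxO3 and regulates tubular sodium transport (ENSMUSG00000019970, chromosome 10, 21882184 to 21999903), had 9.65 FPKM in library 8, 10.4 in library 9 and 10.8 in library 10, against 13.2 in library 7. The scramble library was the high one and the 3 siRNA libraries lay close together, with ratios to library 7 of -0.42, -0.33 and -0.28. Between those siRNA libraries the Sgk1 ratios were 0.09 in 9/8, 0.14 in 10/8 and 0.05 in 10/9. At least as far from 0 lay 5.31%, 14.3% and 12.8% of measured genes in 8/7, 9/7 and 10/7. Sgk3, its endosomal relative, had 9.23, 9.92 and 8.63 FPKM in libraries 8, 9 and 10, against 9.85 in library 7.

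Phosphatases that oppose the pathway included Inpp5d, a member with 1 high library. Inpp5d (SHIP1, a PIP3 5-phosphatase best known from blood cells; ENSMUSG00000026288, chromosome 1, 87620312 to 87720507) had 2.92 FPKM in library 8, 3.32 in library 9 and 4.46 in library 10, against 3.07 in library 7. Library 10 was the high one, with a ratio of 0.42 in 10/7 and ratios of 0.47 in 10/8 and 0.33 in 10/9. A distance of that size in 10/7 was reached by 5.94% of measured genes. The leukocyte list summed to 7.69, 7.61 and 8.10 FPKM in libraries 8, 9 and 10, against 7.85 in library 7, with Ptprc, the pan-leukocyte gene, near 0 in each. Its genes went different ways in 10/7: Itgam had 0.64 FPKM in library 10 against 0.15 in library 7, Csf1r 1.23 against 1.80, and Cd68 6.20 against 5.88. Their part in the Inpp5d level was not tested. Inppl1 (SHIP2), the widely expressed relative, was far more abundant at 42.9 to 46.7 FPKM, and 18.8% of its exonic bases are shared with Gm10602 on the opposite strand.

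Phlpp1 and Phlpp2 dephosphorylate the hydrophobic motif of AKT. Phlpp1 had 3.16, 2.88 and 3.61 FPKM in libraries 8, 9 and 10, against 3.40 in library 7, and Phlpp2 lay between 6.90 and 7.64 FPKM.

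Downstream of AKT, the TSC and mTOR complex 1 genes showed small differences. Tsc1 and Tsc2, the 2 chains of the brake on RHEB, stayed at 8.42 to 9.56 and 13.8 to 14.6 FPKM. Rheb, the GTPase that activates mTOR, had 84.0 and 84.6 FPKM in libraries 8 and 9 and 96.5 in library 10, against 93.6 in library 7. Mtor had 6.56, 6.74 and 6.06 FPKM in libraries 8, 9 and 10, against 6.99 in library 7, with its lowest ratio, -0.18, in 10/7. Rptor, the scaffold of mTOR complex 1 (ENSMUSG00000025583, chromosome 11, 119602905 to 119899576), had 10.3, 11.2 and 10.7 FPKM, against 12.5 in library 7. As with Sgk1, the scramble library was the high one for Rptor, and its ratios were -0.26, -0.15 and -0.21. Sgk1 and Rptor are among 8 of the 29 measured members with ratios below 0 in all 3 comparisons, which share library 7. The matching share of all genes was not computed.

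The AKT and mTOR targets Gsk3a, Eif4ebp2 and Rps6kb1 were among the least variable members. Gsk3a, a kinase that AKT inhibits, had 73.6, 73.5 and 73.9 FPKM in libraries 8, 9 and 10, against 74.0 in library 7, the narrowest spread of any measured member. Of its exonic bases 28.3% are shared with 9130221H12Rik on the opposite strand. Its relative Gsk3b, outside the members, differed more, at 45.0, 47.1 and 46.7 FPKM in libraries 8, 9 and 10, against 52.7 in library 7. Eif4ebp2, a translation repressor under mTOR complex 1, lay between 50.1 and 51.6 FPKM, and Rps6kb1, which encodes the S6 kinase, between 27.0 and 28.6. Sirt1, which deacetylates FoxO proteins (ENSMUSG00000020063, chromosome 10), had 11.9, 10.1 and 10.8 FPKM, against 11.6 in library 7, and its lowest ratio was -0.20 in 9/7.

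**Figure D4:**
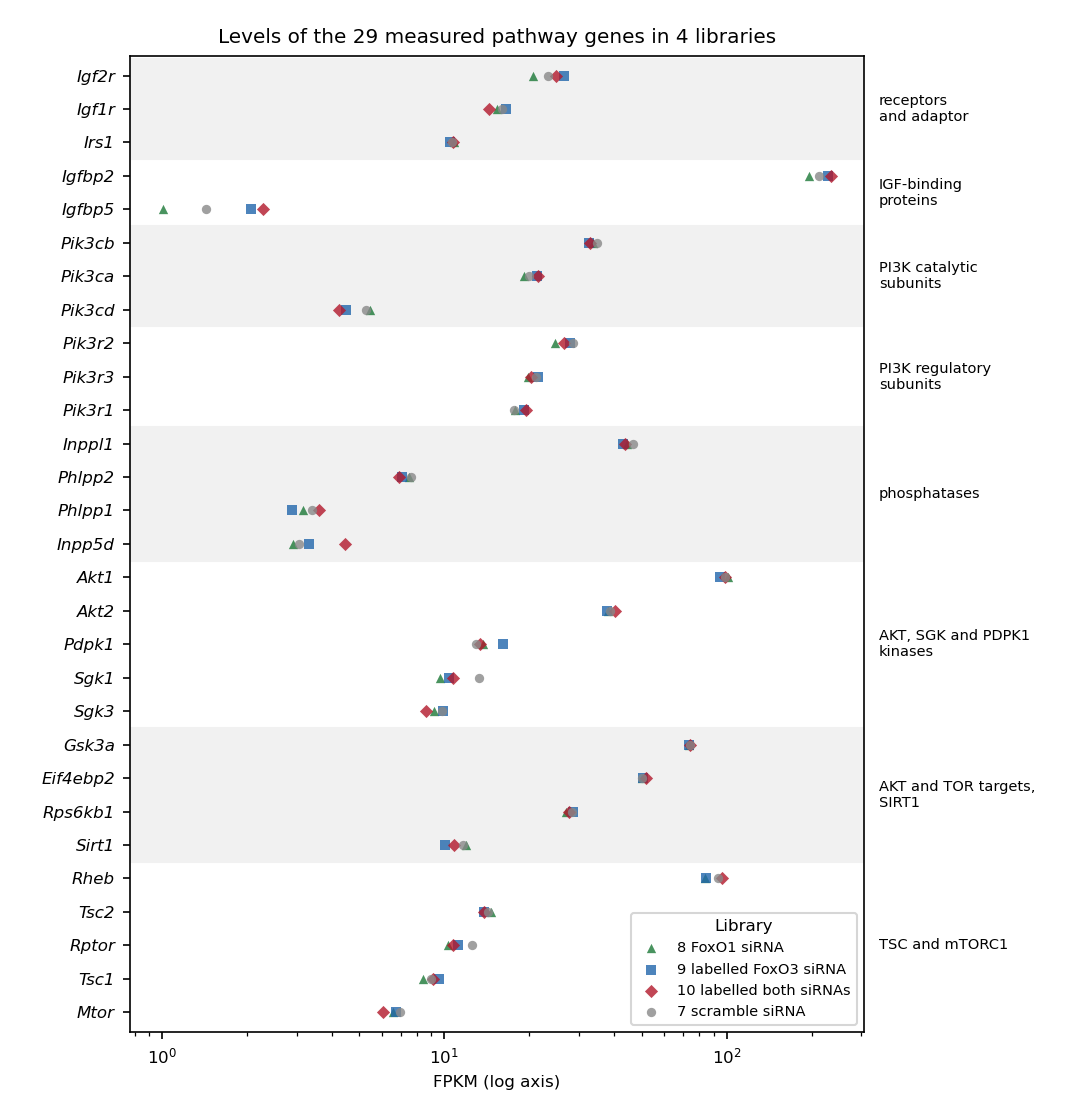
FPKM (x axis, log scale) of the 29 measured members in libraries 8, 9, 10 and 7, grouped by role. Levels run from Igfbp5 at 1.01 to 2.28 up to Igfbp2 at 195 to 234, and for most genes the 4 symbols lie nearly on top of each other.

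Ordered by level, the members ran from Igfbp2 through Akt1, Rheb, Gsk3a, Eif4ebp2, Inppl1, Akt2 and Pik3cb down to Phlpp1, Inpp5d and Igfbp5. Of 28 pairs of neighbours in that order, 15 had ranges over the 4 libraries that overlapped. Read library by library, 20 of the 28 pairs kept their order in all 4, among them Akt1 above Rheb and Sgk1 above Sgk3, and 8 did not, among them Pik3r3 with Pik3ca and Phlpp1 with Inpp5d. The highest level divided by the lowest had a median of 1.15 over the 29 members and was above 1.2 in 8 of them. Over the 12127 genes measured in at least 1 of the 4 libraries and listed at 0 in none, the median was 1.19, and 48.1% were above 1.2.

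Of 68 further genes of the pathway, 52 were measured, and 1 of the 52 passed 0.58 in each of the 3 comparisons with library 7. Of all measured genes, 2.68% passed in 8/7, 4.53% in 9/7 and 2.96% in 10/7. The further gene past the rule was Foxo1, itself targeted by the siRNA, in 8/7, at -0.94, and in 10/7, at -0.66. In 9/7 it was Trib3, a stress-induced pseudokinase that can bind AKT, with 4.02 FPKM in library 9 against 11.1 in library 7 and a ratio of -1.27. Eif4ebp1, the better known 4E-BP form, had 67.3 FPKM in library 9 against 96.0 in library 7, a ratio of -0.51, whereas the member Eif4ebp2 had a ratio of 0.01 there. Mapkap1, a subunit of mTOR complex 2, had 28.7, 27.0 and 26.3 FPKM in libraries 8, 9 and 10, against 34.7 in library 7, another gene with its high value in the scramble library. Rhebl1, a RHEB relative, had ratios of 0.51, 0.23 and 0.29. Pik3ip1, a negative regulator of PI3K, had ratios of 0.37 in 8/7 and 0.34 in 9/7. Sesn3, a FoxO-regulated sestrin, stood at -0.33 in 8/7, and Akt1s1, the mTOR complex 1 subunit PRAS40, at -0.28 in 10/7.

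Values of libraries 1 to 6 were deposited for selected genes, which limits what they show. One list is of 1852 genes whose log2 FPKM ratio in 2/1 was above 0.5, so a higher value with Wnt3a without H2O2 is a condition of entry, while 6/5 played no part in it. It holds 5 of the 32 members, Igfbp2, Igfbp3, Igfbp4, Igfbp5 and Phlpp1, which is 15.6% of the members, against 3.98% of all rows. Igfbp3, Igfbp4 and Igfbp5 stayed under 1 FPKM in libraries 2 and 1, Igfbp3 at 0.05 and 0.02 FPKM. Igfbp2 and Phlpp1 were above that limit in both. All rows include many genes under 1 FPKM, while 29 of the 32 members were measured. The shares thus rest on different bases, and enrichment was not tested. The list's values describe 4 of the 5 IGF-binding protein members and 1 phosphatase, and the direction in 2/1 is set by the choice of the list.

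Igfbp2 had 187 FPKM with Wnt3a in library 2 against 112 with buffer in library 1, and under H2O2 it had 167 FPKM with Wnt3a in library 6 against 108 in library 5, which has no Wnt entry. The ratio was 0.73 in 2/1 and 0.63 in 6/5. Igfbp2 was thus 1.67-fold as high in library 2 as in library 1 and 1.55-fold as high in library 6 as in library 5. Igfbp2 was higher past 0.58 in 6/5, as were 37.0% of the 522 genes of that list that were measured there. Igfbp5 was weakly expressed in these cells without siRNA. It had 0.37 FPKM in library 2 against 0.10 in library 1, and 1.25 FPKM in library 6 against 0.09 in library 5, a 6/5 ratio of 1.05. Igfbp5 reached 1 FPKM in library 6 alone of these 4, so it counts as measured in 6/5 through that library. Its place past 0.58 depends on the pseudocount, since the ratio was 2.83 with 0.1 FPKM and 0.30 with 5 FPKM. Phlpp1 had 3.30 FPKM in library 2 against 2.26 in library 1, and 4.28 FPKM in library 6 against 3.10 in library 5, with ratios of 0.40 and 0.36. The 6/5 median of the list's measured genes was 0.33, close to the value of Phlpp1.

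**Figure D5:**
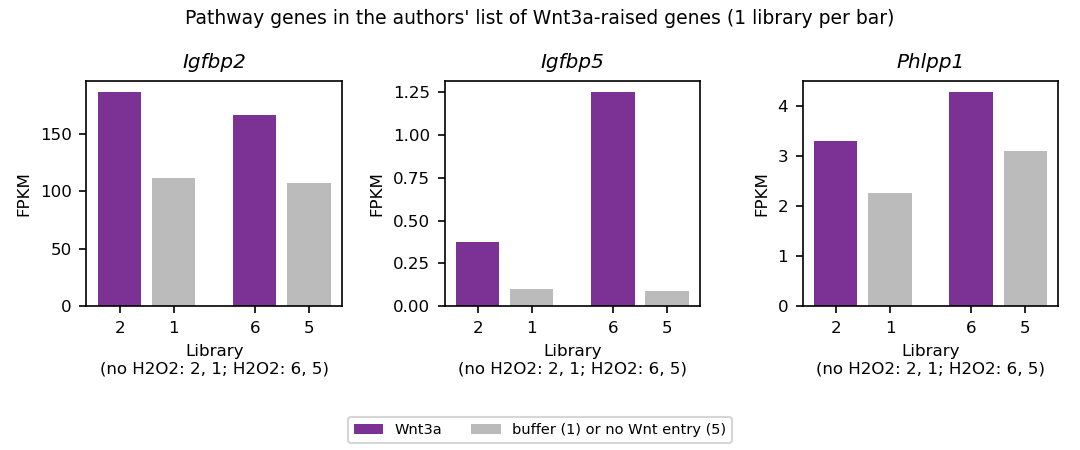
FPKM (y axis, from 0) of Igfbp2, Igfbp5 and Phlpp1, with Wnt3a in library 2 beside buffer in library 1, and H2O2 with Wnt3a in library 6 beside H2O2 without a Wnt entry in library 5, 1 library per bar. Each gene is higher with Wnt3a in both pairs; in 2/1 that was the condition for entering the authors' list.

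For Wnt3a the TCF/LEF letters CTTTGA were sought on either strand in the same promoter windows, a choice made after the joined lists were seen. They occurred in 4 of 31 members (12.9%), Akt2, Gsk3a, Igf1r and Sgk1, against 18.2% of all genes. The windows of Igfbp2, Igfbp5 and Phlpp1 held none, which says only that these letters are not in those windows.

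Another list is of 1637 genes whose log2 FPKM ratio lay more than 0.5 from 0 in both 4/3 and 10/7. It holds 1 of the 32 members (3.12%), against 3.52% of all rows. That member is Igfbp4, at levels under 0.5 FPKM: 0.08 FPKM in library 4 against 0.25 in library 3, and 0.45 FPKM in library 10 against 0.14 in library 7. The other 31 members are not on it, and their values in libraries 3 and 4 were not analysed here.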

How the data were processed

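The authors deposited FPKM values made with TopHat2, Cufflinks and Cuffdiff on mm10, per the submitters' processing notes. No source used here gives their versions, settings, strandedness or gene annotation. Per the file headers, 3 all-gene tables also hold Cuffdiff p-values and q-values, quoted as the authors' own. The 2 joined lists hold FPKM of selected genes. Library 7 is printed from the 8/7 table, and its values in the other tables differed by factors of 1.00217 and 1.00334. Ratios to library 7 were formed within a table, and 9/8, 10/8 and 10/9 by subtracting them. Total fragments are not given, so depth is unknown and no counting interval was computed. Steps among genes under 0.3 FPKM gave rough depths of 0.883 (library 8), 0.920 (library 9) and 0.911 (library 10), relative to library 7.

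The pseudocount of 1 FPKM understates changes of weakly expressed genes. Counts past 0.58 were set beside the share of all measured genes, since 1 library per group allows no test. The calculation was tested on simulated data, with genes of 5 FPKM or more and less noise than the real ratios. That checks the arithmetic and does not cover weakly expressed members such as Igfbp5 and Inpp5d. Members and lists were chosen with earlier results of these data known. Full values are given for the 12 measured members with the largest absolute ratio. Further pathway genes are named when past 0.58 or among the 4 largest ratios of a comparison, with a few relatives added after their values were seen. Exonic overlaps came from GENCODE (GRCm38) and promoters from RefSeq. Python 3.11.15, numpy 2.4.6, pandas 2.3.3 and matplotlib 3.10.9 were used. Alternatives were pseudocounts of 0.1 and 5 FPKM, a minimum of 5 FPKM or none, centring on the median, rows with status OK, a rule of 0.32 and a longer motif.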

Additional observations from a re-analysis of the deposited data

Results flagged for a closer look

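Igfbp4 moved in opposite directions under the same contrast in the 2 joined lists, at levels under 0.5 FPKM. With Wnt3a the ratio was 0.11 in 2/1, without H2O2, and -0.18 in 6/5, with H2O2, so that 6/5 minus 2/1 was -0.29. In the libraries labelled for siRNA to FoxO1 and FoxO3 it was 0.35 in 10/7, with H2O2, and -0.21 in 4/3, without H2O2, so that 10/7 minus 4/3 was 0.57. Igfbp4 entered these lists through its values in 2/1, 4/3 and 10/7. That set its direction in 2/1 and a least distance from 0 in 4/3 and 10/7, while 6/5 played no part. Each side is 1 library, and neither difference was tested.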

How the results depend on the processing

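No paired analysis was possible because every group holds 1 library. The medians of the members in 8/7, 9/7 and 10/7 lay within -0.07 to 0.01 under all 6 alternatives. Centring moved the medians in 9/7 and 10/7 from below 0 to above it, and a minimum of 5 FPKM moved the 10/7 median from -0.01 to -0.04. The counts past 0.58 stayed at 0 in 8/7 and 9/7 under those alternatives, and with a pseudocount of 0.1 FPKM the count in 10/7 was 1, Igfbp5 at 0.63. With a size rule of 0.32 the counts were 1 in 8/7, 2 in 9/7 and 2 in 10/7, where 9.20%, 14.7% and 10.2% of measured genes passed. In the ratios between siRNA libraries, a pseudocount of 5 FPKM left 0 members past 0.58 in 9/8 and 0 in 10/8, and a pseudocount of 0.1 FPKM gave 2 in 10/8, Igfbp5 at 1.10 and Inpp5d, both of which stand low in FPKM. The Igfbp5 ratio in 6/5 was 2.83 with a pseudocount of 0.1 FPKM and 0.30 with 5 FPKM. The 8-letter motif GTAAACAA was found in the same 1 member. Without replicates or total counts, the differences seen in the members cannot be told apart from library-to-library variation.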
